A study of Mus musculus with 6 samples.

Results

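The genes described here encode 10 proteins of the minor spliceosome, chosen by name: *Rnpc3*, *Snrnp25*, *Snrnp35*, *Snrnp48*, *Pdcd7*, *Zmat5* and *Zcrb1* for proteins of the U11/U12 particle, and *Zrsr2*, *Scnm1* and *Rbm48* for proteins that act with it. Their rows were taken from the splicing tables by gene identifier and from the long-read tables by transcript identifier. They gave 37 unique introns of 85015 listed in any total RNA library, in 10 genes of 11925, and 58 transcripts of 116873 in the long-read tables.

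The samples were E14 mouse embryonic stem cells, a feeder-independent line on a 129/Ola background, kept in medium with serum and leukaemia inhibitory factor. Cells received control siRNA or siRNA against *Son* with Lipofectamine2000, and RNA was taken 24 h after transfection. Each treatment gave 2 libraries of total RNA depleted of ribosomal RNA and 1 library of Nanopore cDNA. All samples share the line, the medium and the transfection. A knockdown by siRNA lowers the target without removing it. Nothing in the labels says that replicates were separate cultures, so p-values measure only the spread between these samples, which may be technical.

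Most introns are removed by the major spliceosome, and a small class with distinct splice sites, the U12-type introns, is removed by the minor spliceosome. In the minor spliceosome the U11 and U12 small nuclear RNAs form 1 particle that recognises both ends of such an intron, and the U4atac, U6atac and U5 RNAs join later. The cell adjusts the supply of some of these proteins through their own transcripts: the U11 particle binds paired copies of the U12-type 5′ splice site in *Rnpc3* and *Snrnp48* transcripts. Son is a large nuclear speckle protein with an arginine- and serine-rich region, known for its part in the splicing of introns with weak splice sites.

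The paired copies are shown because they are the known control element of 2 members. They were searched as TATCCTTT, the core of the U12-type 5′ splice site, and each copy is in capitals. The sequences are from GENCODE M21 transcripts (GRCm38), 5′ to 3′ on the transcript strand. The first lies in the 3′ UTR of *Rnpc3* transcripts on chromosome 3 (bases 1695 to 1724 of Rnpc3-201). The second lies in Snrnp48-204, a retained-intron transcript on chromosome 13 (bases 491 to 520), within intron 4 of the coding transcript Snrnp48-201.
Rnpc3: aagtgTATCCTTTcttgTATCCTTTtcggg
Snrnp48: agTATCCTTTttgcaaatgaTATCCTTTta
The copies start 12 bases apart in *Rnpc3* (positions 1700 and 1712 of Rnpc3-201) and 18 bases apart in *Snrnp48* (positions 493 and 511). Of 141767 transcripts searched, 2.66% held the word once or more, 3.1% held it on the other strand, and 0.0169% held 2 copies whose starts were at most 30 bases apart. Those 24 transcripts came from 13 genes, of which 2 were among the 10 described here. A match is a description of the letters and not a measured binding site.

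The knockdown itself was measured first. *Son* was measured at 283 and 314.1 CPM of spliced reads in the 2 controls, against 93.52 and 102.1 after knockdown, a log2 fold change of -1.61 ± 0.09 (SE, n = 2 and 2, edgeR adjusted p = 3.72e-10). Spliced reads are reads split at a 5′ junction, summed over the gene's introns, and CPM is their count scaled to 1000000 reads with TMM factors. The libraries held between 10464961 and 15740941 of them over the introns listed in all 4. In the long reads, *Son* had 217 reads of 3080426 in the control and 37 of 1874851 in the knockdown. All 10 pluripotency markers had at least 3 long reads in both libraries, with 9963 and 9594 CPM in sum. The markers of endoderm, mesoderm, trophoblast, neural cells and fibroblasts summed to between 1.067 and 12.8 CPM in each class and library. *Gata6*, *Sox17*, *Foxa2*, *Kdr*, *Cdx2*, *Hand1*, *Col1a1* and *Col1a2* had no read. Markers with at least 3 reads in the control were 2 of 5 for endoderm, 0 of 4 for mesoderm and 1 of 3 for trophoblast. They were 2 of 3 for neural cells and 2 of 4 for fibroblasts. In the knockdown the fibroblast count was 1 and the others were the same. The trophoblast sums, 9.739 CPM in the control and 12.8 in the knockdown, came from *Elf5* alone.

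No intron of these genes passed the test for a change in splicing efficiency after knockdown of *Son*. Splicing efficiency is the share of split reads among all reads at an intron's junctions. Of the 37 introns, 33 were listed in all 4 libraries and 30, in 9 genes, had enough reads to be tested. None was called at an adjusted p under 0.05 in the edgeR quasi-likelihood test over all introns, where 1.76% of 63309 introns were called (1.71% with lower and 0.0442% with higher efficiency). At that background a count of 0 among 30 is no sign that these introns differ from others. At an unadjusted p under 0.05 there were 3, beside 9.72% of all introns tested, and DESeq2 and limma called 0 as well, beside 0.459% and 0% of all introns. The lowest adjusted p was 0.156.

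The test leaves wide limits for single introns. The log2 odds ratio compares unsplit reads per split read between knockdown and control and is above 0 where the knockdown has more. The upper end of its 95% interval reached 1 (a doubling) in 16 of the 30 introns and 2 in 2 of them. Lower ends went further, to -3.74 in *Zrsr2* intron 6 and -2.77 in *Snrnp48* intron 3, and were not counted. Between 51 and 420 junction reads lay behind an intron in its shallowest library, with a median of 144.5. A doubling could therefore not be told from no change in many of them.

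**Figure D1:**
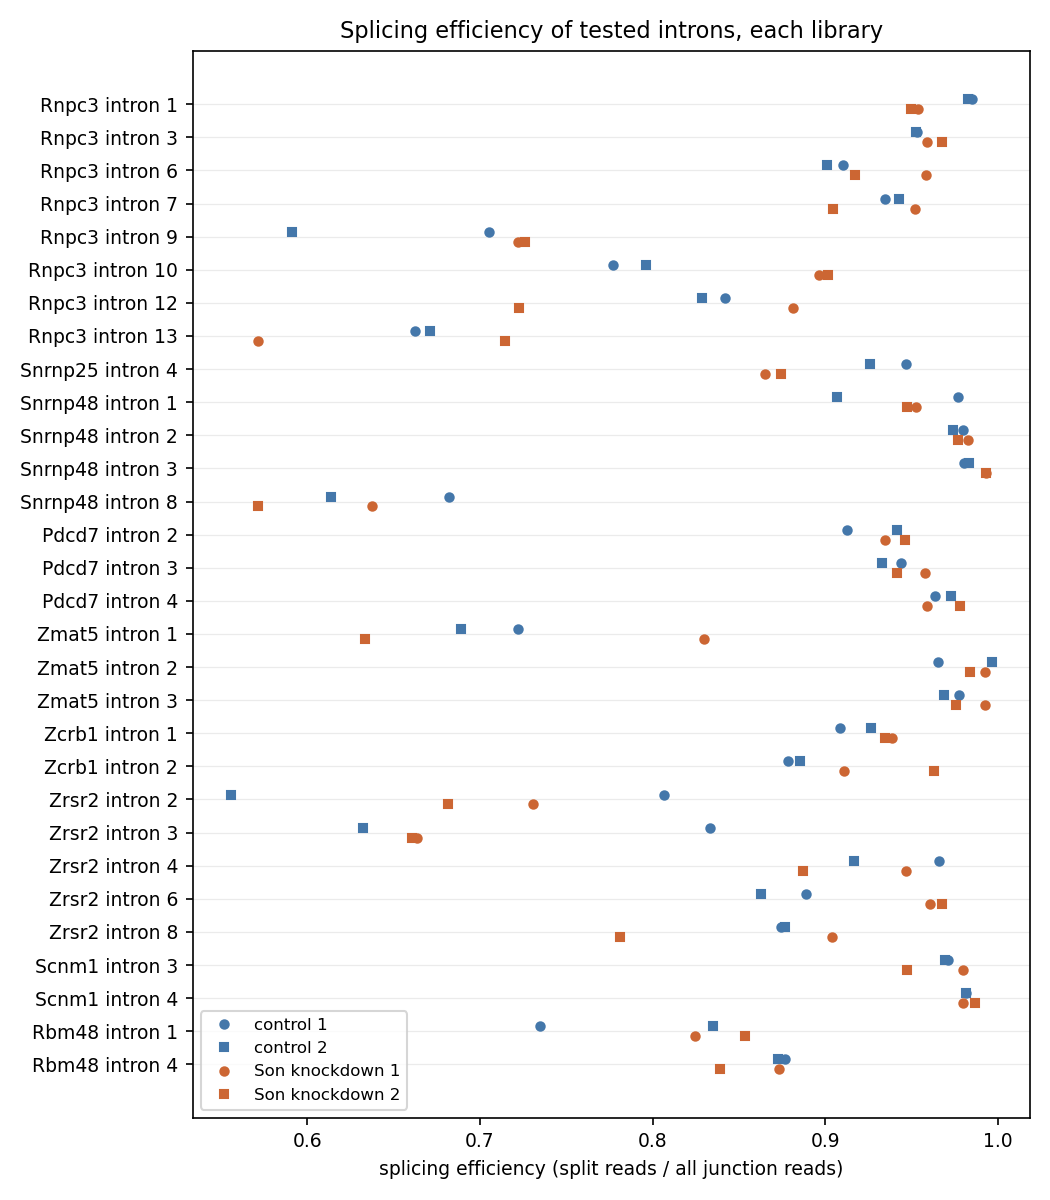
Splicing efficiency (split reads over all junction reads, x axis) of the 30 tested introns (y axis), with 1 point per total RNA library; blue is control and orange is *Son* knockdown, circles are replicate 1 and squares replicate 2. Values run from 0.5556 in *Zrsr2* intron 2 to 0.9963 in *Zmat5* intron 2, and the knockdown points lie below both control points only in *Rnpc3* intron 1 and *Snrnp25* intron 4.

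In control cells the median efficiency of these introns was 0.922, beside 0.933 over all tested introns, with a range from 0.648 to 0.984. The median change was 0.00746 for the 30 introns and -0.00418 for all tested introns, and the median log2 odds ratios were -0.14 and 0.12. With a separate library size for the unsplit column, that median over all introns was -0.04. Ratios of introns of these genes fell too under that scaling, as in *Rnpc3* intron 1 from 1.61 to 1.45 and intron 10 from -1.27 to -1.43. The median of the 30 introns under it was not computed. The knockdown libraries lay below both controls in 2 of the 30 introns (6.67%, beside 24.3% of all tested introns) and above both in 8 (26.7%, beside 13.1%). The 8 are *Rnpc3* introns 3, 6, 9 and 10, *Zcrb1* introns 1 and 2, *Snrnp48* intron 3 and *Zrsr2* intron 6. Introns of 1 gene share transcripts and are not independent counts. No test compares these shares.

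Rnpc3 binds the U12 small nuclear RNA and bridges its U11 and U12 sides. Its transcript carried the largest number of tested introns, 8, and 2 of the 3 introns with the lowest unadjusted p, which went in opposite directions. Intron 1 (1470 nt, chromosome 3, minus strand, junction positions 113423511 and 113422041 on GRCm39) had efficiencies of 0.985 and 0.982 in the controls against 0.954 and 0.9497 after knockdown. Both knockdown libraries were below both controls. The log2 odds ratio was 1.61 (95% interval 0.49 to 2.73, edgeR adjusted p = 0.156). The tables do not say whether positions count from 0 or 1.

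All unsplit reads of *Rnpc3* intron 1 lay at its 3′ junction. There were 8 and 6 under control siRNA and 22 and 20 under *Son* siRNA, beside 265, 169, 227 and 190 split reads at that junction. At the 5′ junction every library had 0 unsplit reads, with 164 to 261 split reads. The value thus rests on 1 end of the intron.

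*Rnpc3* intron 10 (2454 nt, junction positions 113407406 and 113404952) had efficiencies of 0.777 and 0.796 in the controls against 0.896 and 0.902 after knockdown. Here both knockdown libraries were above both controls. The log2 odds ratio was -1.27 (95% interval -2.45 to -0.09, edgeR adjusted p = 0.444). The exon joins left by splicing these introns, and that of *Snrnp25* intron 4 below, are shown to mark the places measured, with 15 bases of each exon from GENCODE M21 (GRCm38) and the 3 bases before and 1 base after the join in capitals.
Rnpc3 intron 1: gataaggggcgcCTGAaacacacagcattt
Rnpc3 intron 10: gtatttctagagAAGAaatggaaacacttt
Snrnp25 intron 4: gaagaagctcagAGATtatggcatccggaa

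The other 6 tested introns of *Rnpc3* had intervals of the log2 odds ratio that include 0. Intron 9 had the lowest efficiency of these in a control, at 0.705 and 0.591 under control siRNA and 0.722 and 0.726 under *Son* siRNA. Intron 13 had 0.662 and 0.671 in the controls against 0.571 and 0.714 after knockdown, so that the knockdown libraries lay on either side of the controls.

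*Rnpc3* also had fewer split reads in its later introns, in control and knockdown alike. Split reads at the 5′ junction averaged over introns 9, 10, 12 and 13, divided by those over introns 1, 3, 6 and 7, gave 0.222 and 0.254 under control siRNA and 0.255 and 0.251 under *Son* siRNA. The means were 0.238 ± 0.0222 and 0.253 ± 0.00278 (SD, n = 2 each), so the groups overlapped. These 2 sets of introns were chosen after their values were seen, and the ratio is a description. *Amy1* overlaps *Rnpc3* on the same strand in GENCODE M21, and whether its reads enter the unsplit counts was not tested.

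**Figure D2:**
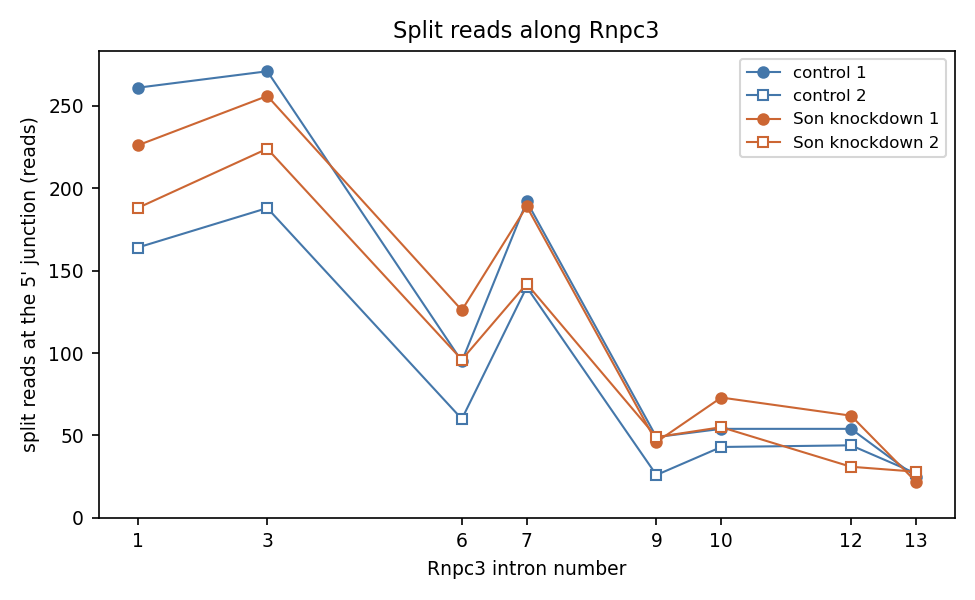
Split reads at the 5′ junction (y axis, reads, not scaled for depth) of each *Rnpc3* intron listed in all 4 libraries (x axis, intron number), 1 line per total RNA library. In every library introns 9 to 13 lie below introns 1 to 7, and the lines of control and knockdown libraries cross.

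Snrnp25, Snrnp35 and Snrnp48 belong to the U11 side of the particle. *Snrnp25* intron 4 (276 nt, chromosome 11, plus strand, junction positions 32158408 and 32158684) had efficiencies of 0.947 and 0.926 in the controls against 0.865 and 0.874 after knockdown. It was the other intron with both knockdown libraries below both controls, with a log2 odds ratio of 1.17 (95% interval 0.12 to 2.21, edgeR adjusted p = 0.402). It had 17 and 15 unsplit reads in the controls against 35 and 25 after knockdown. At its 3′ junction alone the log2 odds ratio was 0.74.

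Snrnp48 contacts the 5′ splice site of U12-type introns. Its last intron, number 8 (5480 nt), was, with *Rnpc3* intron 9, the least spliced in controls of the 30, with efficiencies of 0.682 and 0.614 under control siRNA and 0.638 and 0.571 under *Son* siRNA. The groups overlapped, with a log2 odds ratio of 0.28 (95% interval -1.09 to 1.65). That ratio was 0.05 without control replicate 1 and 0.08 without knockdown replicate 2, and 0.48 without either of the other two libraries. *Snrnp48* intron 3 (799 nt) was spliced almost fully, at 0.981 and 0.983 in the controls and 0.993 in both knockdown libraries, with a log2 odds ratio of -1.34 (95% interval -2.77 to 0.09, edgeR adjusted p = 0.576). Intron 4, which holds the paired copies shown above, was listed in no total RNA library, so its splicing efficiency was not measured.

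*Snrnp35*, whose protein resembles a U1 protein and sits in the U11 particle, had 1 intron, in its 5′ UTR (6469 nt). It was listed in knockdown replicate 1 only, at an efficiency of 0.819 from 59 split and 13 unsplit reads, and was not tested. Of its split reads, 16 lay at the 5′ junction and 43 at the 3′ junction, so not all of them join the listed ends. Another 3 introns were listed in 2 libraries each. Those of *Pdcd7* (552 nt) and *Rbm48* (2809 nt) were listed in both controls, at 0.893 and 0.897 and at 0.753 and 0.610, and that of *Snrnp25* (649 nt) in replicate 1 of each group, at 0.746 and 0.828. The split reads of these 3 introns all lay at the 5′ junction, 133 and 105, 55 and 36, and 53 and 48, with 0 at the 3′ junction in every library that listed them. Those 3 pairs of efficiencies therefore do not measure removal of the intron as listed. A listed junction has at least 10 reads, so an unlisted intron is one not measured and not one at 0.

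Pdcd7 joins Rnpc3 to the U11 side, and Zmat5 and Zcrb1 are small zinc finger proteins of the particle. *Pdcd7* intron 2 (7601 nt) had efficiencies of 0.912 and 0.941 in the controls against 0.935 and 0.946 after knockdown, with a log2 odds ratio of -0.32 (95% interval -1.56 to 0.91), which was 0.03 without control replicate 1 and -0.59 without control replicate 2. *Zmat5* intron 1 (17636 nt, 5′ UTR), the longest tested, had 0.722 and 0.689 under control siRNA and 0.830 and 0.633 under *Son* siRNA. Its split reads at the 5′ junction were 21 and 20 in the controls and 32 and 13 after knockdown. At the 3′ junction there were more, 31 and 31 against 51 and 25, so not all of them join the listed ends. The 2 knockdown libraries of *Zmat5* lay on either side of the controls, and the log2 odds ratio was -0.29 (95% interval -1.65 to 1.08), or 0.47 without knockdown replicate 1 and -1.02 without knockdown replicate 2. *Cabp7* overlaps *Zmat5* on the opposite strand, and the tables do not state whether reads were counted by strand. *Zcrb1* intron 2 (1554 nt) had 0.879 and 0.885 in the controls against 0.911 and 0.963 after knockdown, with a log2 odds ratio of -0.97 (95% interval -2.70 to 0.76). Without knockdown replicate 1 it was -1.75, without knockdown replicate 2 it was -0.44, and at the 3′ junction alone -0.64.

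Zrsr2 recognises the 3′ splice site of U12-type introns. *Zrsr2* intron 6 (808 nt, chromosome X) had efficiencies of 0.889 and 0.863 under control siRNA and 0.961 and 0.968 under *Son* siRNA. Both knockdown libraries were above both controls, on 10 and 10 unsplit reads against 2 and 2, and the log2 odds ratio of -1.87 had an interval from -3.74 to 0.01 (edgeR adjusted p = 0.518). It was -2.88 at the 5′ junction alone and -1.0 at the 3′ junction alone. The 2 controls differed widely in intron 2, at 0.807 and 0.556, with 0.731 and 0.681 in the knockdown between them. They did so in intron 3 too, at 0.833 and 0.632, beside 0.664 and 0.661.

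Scnm1 acts in the activated minor spliceosome, and Rbm48 binds the U6atac RNA. *Scnm1* held the shortest introns tested, of 88 and 103 nt. Intron 3 of *Scnm1* had efficiencies of 0.971 and 0.969 in the controls against 0.979 and 0.947 after knockdown, and a log2 odds ratio of 0.23 (95% interval -0.96 to 1.43), or 0.87 without knockdown replicate 1 and -0.53 without knockdown replicate 2. *Rbm48* intron 1 (520 nt) had 0.735 and 0.835 under control siRNA and 0.825 and 0.853 under *Son* siRNA, with a log2 odds ratio of -0.51 (95% interval -1.44 to 0.43). The controls of *Rbm48* spanned more than the knockdown libraries did, and the ratio was -0.04 without control replicate 1 and -0.91 without control replicate 2. It was -0.12 at the 5′ junction alone and -1.25 at the 3′ junction alone. *1700109H08Rik* and *2510017J16Rik* overlap *Rbm48* on the opposite strand, so its unsplit reads are uncertain.

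Short introns were called more often than others in these data, and 5 of the 30 tested introns were at most 300 nt long. None of the 5 was called, beside 6.43% of the 13205 tested introns of that length. They lie in *Scnm1* (2), *Pdcd7*, *Snrnp25* and *Snrnp48*.

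**Figure D3:**
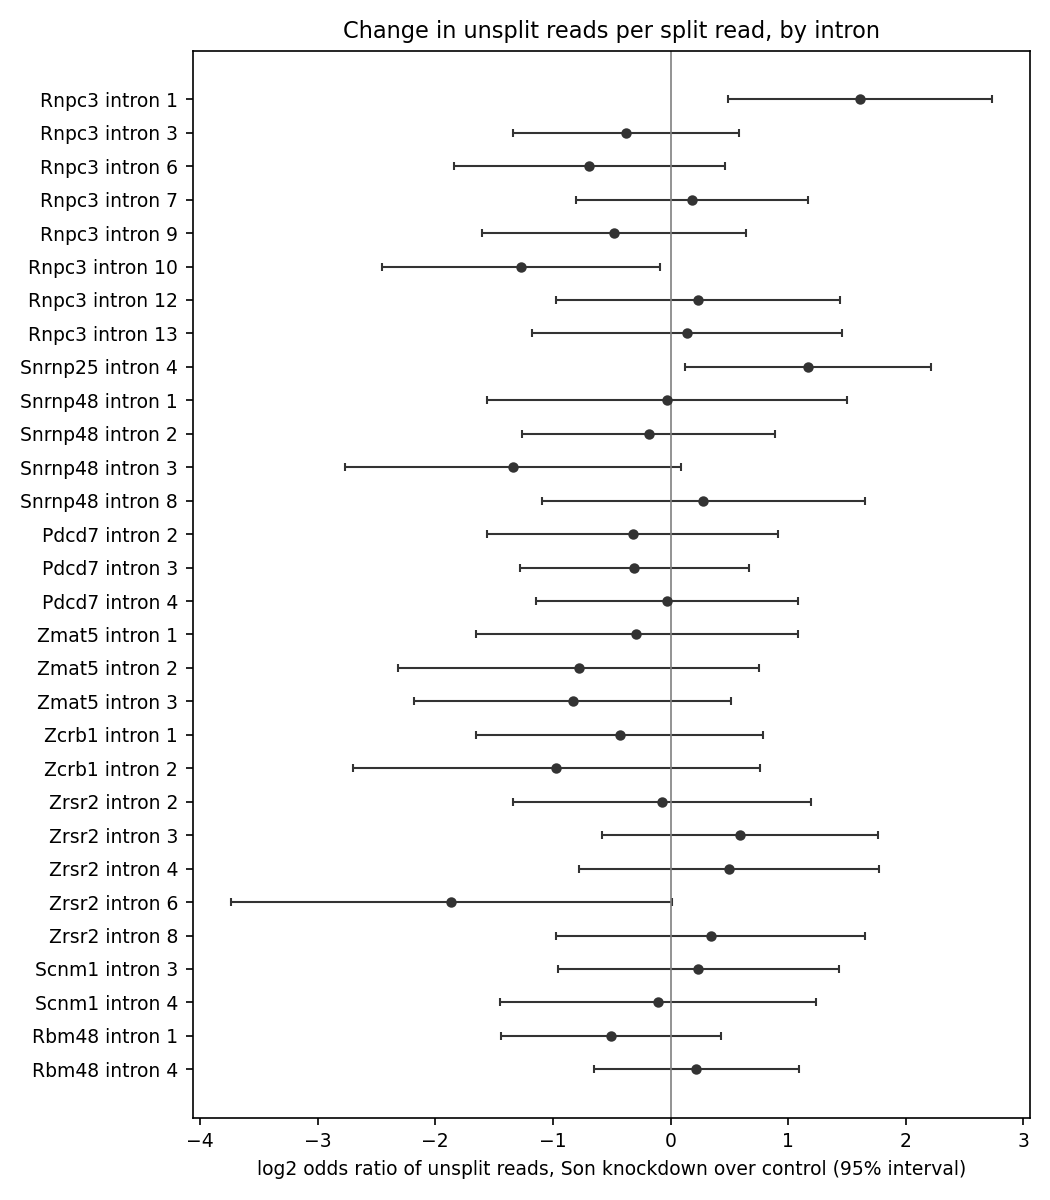
Log2 odds ratio of unsplit reads in *Son* knockdown over control (x axis; above 0 is less spliced in the knockdown) for the 30 tested introns (y axis), with 95% intervals from the edgeR fit to 2 against 2 libraries. The intervals that leave out 0 are those of *Rnpc3* introns 1 and 10 and *Snrnp25* intron 4, none of which passed the adjusted threshold.

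Summed over each gene's introns, splicing efficiency was called in 0 of 9 genes, beside 7.11% of the 9370 genes tested (6.98% with lower and 0.128% with higher efficiency). No gene of the 9 had an unadjusted p under 0.05 in edgeR, where 13.8% of all genes did, and DESeq2 and limma called 0 of the 9 too, beside 5.59% and 0% of all genes. The median log2 odds ratio was -0.13, beside 0.09 over all genes. *Snrnp25* had the lowest adjusted p, 0.442, with efficiencies of 0.943 and 0.931 in the controls against 0.896 and 0.883 after knockdown. Its log2 odds ratio was 0.88 (95% interval -0.06 to 1.82). At the other end, *Zcrb1* had 0.926 and 0.941 under control siRNA and 0.952 and 0.959 under *Son* siRNA, with a log2 odds ratio of -0.60 (95% interval -1.57 to 0.37).

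None of the 9 genes passed the test for a change in spliced reads. The edgeR count of 0 stands beside 8.72% of 9474 genes called in either direction, 6.76% with fewer and 1.96% with more spliced reads, and DESeq2 also called 0, beside 7.92% of all genes. *Zcrb1* was the 1 gene at an unadjusted p under 0.05, where 19.7% of all genes were. The median log2 fold change was -0.01 for the 9 genes and 0.01 for all. The 95% intervals ran from -0.83 at the lowest to 0.48 at the highest, so a halving or a doubling lay outside the interval of each of the 9.

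*Zcrb1* had 14.3 and 15.7 CPM of spliced reads in control libraries against 11.7 and 10.2 after knockdown, and both knockdown libraries were below both controls. Its log2 fold change was -0.44 (95% interval -0.83 to -0.06, edgeR adjusted p = 0.174). *Zrsr2* had 19.1 and 19.5 in the controls against 14.8 and 18.7 after knockdown (log2 fold change -0.21, 95% interval -0.57 to 0.14). *Snrnp25* had 10.7 and 11.0 under control siRNA and 9.89 and 10.4 under *Son* siRNA (log2 fold change -0.10, 95% interval -0.50 to 0.31). These 3 genes were lower in both knockdown libraries, and 24.6% of all tested genes were.

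*Rnpc3* was the 1 gene higher in both knockdown libraries, as were 24% of all tested genes. It had 64.7 and 66.9 CPM of spliced reads in control libraries against 67.8 and 78.3 after knockdown, a log2 fold change of 0.15 (95% interval -0.07 to 0.37). *Snrnp48* had 50.2 and 44.3 in the controls against 48.1 and 57.3 after knockdown (log2 fold change 0.15, 95% interval -0.10 to 0.40), and its groups overlapped. *Rnpc3* and *Snrnp48*, the 2 genes with the paired copies, had close estimates, both with intervals that include 0. The estimate for *Zmat5*, where no paired copies were found, was near them at 0.17, so the likeness is not particular to these 2. Without knockdown replicate 1, *Rnpc3* and *Snrnp48* had 0.25 and 0.27, and without knockdown replicate 2 they had 0.04 and 0.02.

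The remaining 4 genes overlapped between groups too. *Zmat5* had 23.2 and 29.7 CPM of spliced reads in control libraries against 28.5 and 30.9 after knockdown (log2 fold change 0.17, 95% interval -0.14 to 0.48). *Pdcd7* had 37.0 and 35.1 under control siRNA and 34.0 and 42.3 under *Son* siRNA (0.07, -0.20 to 0.35). *Scnm1* and *Rbm48* were the nearest to no difference. *Scnm1* had 26.8 and 26.5 in the controls against 25.9 and 27.2 after knockdown (95% interval of the log2 fold change -0.30 to 0.28). *Rbm48* had 18.9 and 22.8 under control siRNA and 19.5 and 21.9 under *Son* siRNA (95% interval -0.34 to 0.33).

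**Figure D4:**
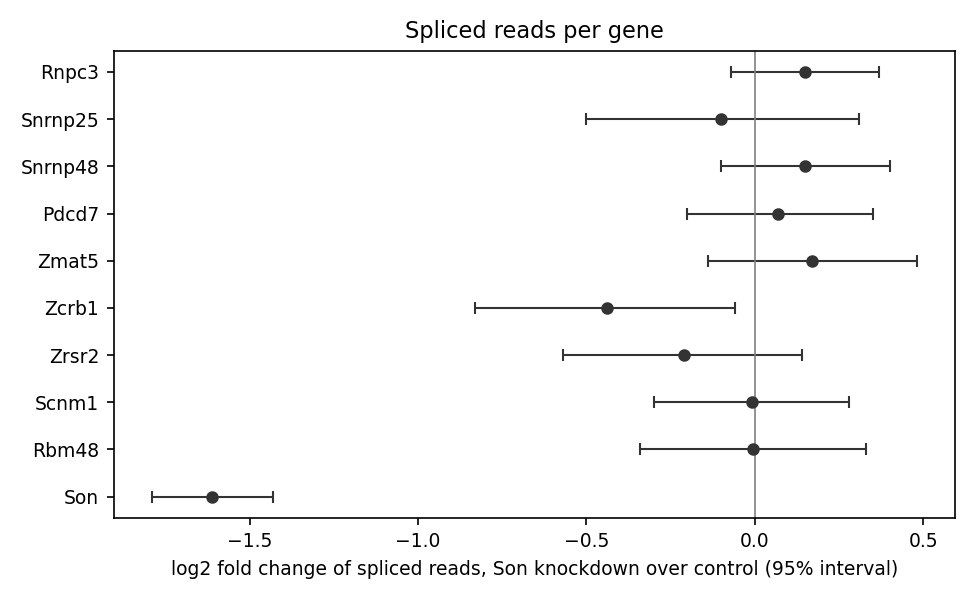
Log2 fold change of spliced reads per gene, *Son* knockdown over control (x axis), with 95% intervals from the edgeR fit to 2 against 2 libraries, for the 9 tested genes and for *Son*. *Son* lies at -1.61, and *Zcrb1* at -0.44 is the 1 other gene whose interval leaves out 0.

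Levels per intron are means over the introns of a gene that were listed in all 4 libraries. Introns of 1 gene differed several-fold, so the order is of these means and not of transcript levels: in control replicate 1, intron 2 of *Snrnp48* had 364 split reads at its 5′ junction and intron 8 had 29, while the introns of *Scnm1* had 202 and 213. By this mean, *Scnm1* had 13.3 ± 0.127 CPM of spliced reads per intron in controls (SD, n = 2), then *Pdcd7* at 12.01 ± 0.4507, *Snrnp48* at 11.8 ± 1.06 and *Rbm48* at 10.4 ± 1.39. Lower in the order were *Zmat5* at 8.81 ± 1.52, *Rnpc3* at 8.22 ± 0.189 and *Snrnp25* at 5.42 ± 0.122. *Zrsr2* at 3.87 ± 0.0535 and *Zcrb1* at 3.74 ± 0.241 were lowest. *Pdcd7* and *Snrnp48*, *Zmat5* and *Rnpc3*, and *Zrsr2* and *Zcrb1* differed by less than the larger SD of each pair.

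Long reads gave another view of whole transcripts, with 1 library per group and so no test. A total of 9 genes had at least 20 reads over both libraries, and none was past 2-fold, beside 2.21% of 9611 genes higher and 4.16% lower in the knockdown library. The median log2 ratio was -0.02, and -0.01 over all genes. Long-read CPM is scaled to all reads of the library. The intervals given are 95% Wilson intervals and cover counting error only.

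*Scnm1* differed most, with 79 reads in the control (25.7 CPM, 20.6 to 32.0) and 77 in the knockdown (41.1, 32.9 to 51.3), a log2 ratio of 0.68. Its intervals did not overlap, while its spliced reads in total RNA differed little. The share of all genes whose intervals do not overlap was not computed, so this is not shown to be particular to *Scnm1*. *Zmat5* had 95 and 78 reads (30.8 and 41.6 CPM, log2 ratio 0.43). *Snrnp48* had 121 and 57 reads (39.3 and 30.4 CPM, log2 ratio -0.36), with intervals that overlapped.

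*Zcrb1* had 133 and 93 reads, 43.2 and 49.6 CPM, so that the long reads did not show the lower level seen in its spliced reads. *Zrsr2* had the most, 182 and 120 reads (59.1 and 64.0 CPM). *Zrsr1*, a retrogene copy of *Zrsr2*, had 11 and 13 reads, and how reads of the 2 were divided is not stated. *Snrnp25* had 136 and 75 reads (44.2 and 40.0 CPM), *Rnpc3* 51 and 27 (16.6 and 14.4) and *Rbm48* 45 and 24 (14.6 and 12.8).

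*Snrnp35*, which total RNA could not test, had 22 and 13 long reads, 7.14 CPM (4.72 to 10.8) in the control and 6.93 (4.05 to 11.9) in the knockdown. *Pdcd7* had only 10 and 3 reads, the fewest of the 10 genes. The 2 assays differ in RNA fraction and in how reads were assigned, so their levels are not compared. For *Zcrb1* and *Scnm1* only the changes after knockdown were set side by side.

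**Figure D5:**
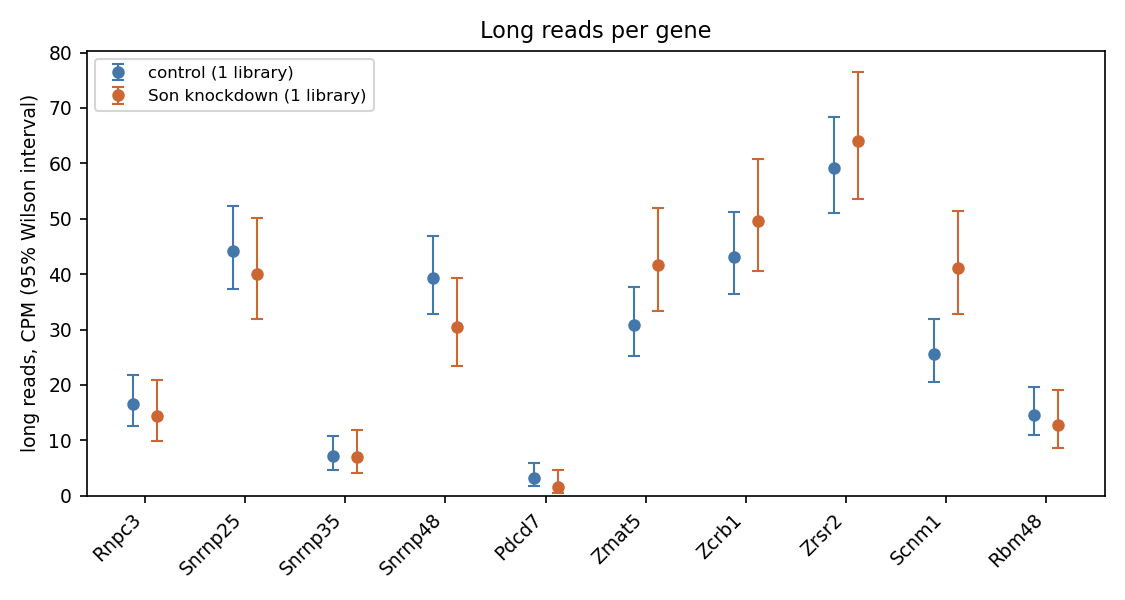
Long reads in CPM (y axis) of each gene (x axis) in the 1 control and the 1 *Son* knockdown Nanopore cDNA library, with 95% Wilson intervals for counting error. The intervals overlap for each gene except *Scnm1*, at 25.7 and 41.1 CPM, and the share over all genes was not computed.

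Single transcripts were compared where the 2 libraries held at least 20 reads, which left 12. Zcrb1-208, a coding transcript, was the 1 past 2-fold, with 18 reads in the control and 5 in the knockdown (5.84 and 2.67 CPM, log2 ratio -1.03), beside 5.8% of 13807 transcripts lower and 3.32% higher. It made up 13.5% of the *Zcrb1* reads in the control (8.74 to 20.4) and 5.38% in the knockdown (2.32 to 12). The main transcript, Zcrb1-201, had 104 and 78 reads. With a pseudocount of 5 reads in place of 0.5 the ratio of Zcrb1-208 was -0.49.

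Zrsr2-202 had 33 reads in the control and 10 in the knockdown, a log2 ratio of -0.96, and its share of *Zrsr2* reads was 18.1% (13.2 to 24.4) and 8.33% (4.59 to 14.7). Zrsr2-201, the most abundant transcript of the gene, had 131 and 101 reads. Scnm1-201 had 63 and 66 reads, which is 79.7% (69.6 to 87.1) and 85.7% (76.2 to 91.8) of *Scnm1*.

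The transcripts that carry the paired copies are given by their share of the gene. Snrnp48-204, with the copies in its retained intron, had 27 and 17 reads, 22.3% of *Snrnp48* in the control (15.8 to 30.5) and 29.8% in the knockdown (19.5 to 42.7). Snrnp48-201 had 76 and 35. Of the *Rnpc3* coding transcripts, 3 hold the copies in the 3′ UTR and Rnpc3-203 does not, since they lie in its intron 14. The 3 had 17 of the coding reads in the control, 37% (24.5 to 51.4), and 9 in the knockdown, 34.6% (19.4 to 53.8), and Rnpc3-203 had 29 and 17. The intervals of control and knockdown overlap in both genes. Retained-intron transcripts of all 10 genes together took 6.979% of their reads in the control (5.472 to 8.864) and 7.055% in the knockdown (5.223 to 9.464), beside 6.241% and 6.638% over all annotated transcripts.

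The minor spliceosome shares most of its other proteins with the major one. A list of 41 such partners was read in the same fits: proteins associated with the minor spliceosome, the SF3b complex, proteins of U5 and of U4/U6, and the Sm and LSm rings. Of 36 tested, 3 fell in spliced reads and none rose, 8.33% called beside 8.72% of all genes. *Ppil2*, a cyclophilin-like protein, had 171.2 and 192 CPM of spliced reads in control libraries against 105.1 and 110 after knockdown (log2 fold change -0.75 ± 0.09, SE). *Prpf31*, which holds the U4/U6.U5 particle together, fell by 0.55 on the log2 scale, and *Sf3b2* by 0.47.

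Splicing efficiency fell in 2 of 36 partners, 5.56% beside 7.11% of all genes, and in 3 of 288 partner introns, 1.04% beside 1.76%. *Ppil2* had efficiencies of 0.921 and 0.902 in the controls against 0.851 and 0.820 after knockdown, and 2 of its introns were called. Its 90 nt intron went from 0.825 and 0.824 to 0.495 and 0.483, and its 380 nt intron from 0.927 and 0.901 to 0.759 and 0.587. *Snrpd2*, of the Sm ring, was called on 1 and 6 unsplit reads in the controls against 19 and 8 in the knockdown. *Eftud2*, a GTPase of U5, had 1 called intron (162 nt), at 1 and 0.995 under control siRNA and 0.965 and 0.972 under *Son* siRNA. With DESeq2, *Ppil2* and its 380 nt intron were still called, while *Snrpd2*, the *Eftud2* intron and the 90 nt *Ppil2* intron were not. With limma none of these was called, beside 0% of all genes and introns. Without control replicate 1, neither a partner gene nor a partner intron was called for splicing efficiency, and without knockdown replicate 1, 15 partners were called for spliced reads.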

How the data were processed

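Per the labels, each of the 4 total RNA tables the authors deposited comes from SPLICE-q and gives, for an intron, the counts of reads split or not split at its 5′ and at its 3′ junction. The score column the authors deposited is a fraction from 0 to 1; recomputed here, it is the split reads over all junction reads, and each listed junction has at least 10 reads. For the 2 long-read libraries the authors deposited counts per transcript, per the labels. The submitters' processing notes name GRCm39, minimap2 and SAMtools; settings, annotation and strand are not given in the sources used here. Both long-read samples, the control too, are described as starting from the same knockdown sample. The 2 libraries differed in *Son*, at 70.4 CPM in the control and 19.7 in the knockdown. Whether the description holds for the control was not tested, and libraries of the 2 assays were not treated as pairs.

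Introns repeated for several transcripts were reduced to 1, and those listed under several genes were left out of sums per gene. Intron numbers came from GENCODE M21 by transcript identifier, and all 37 lengths matched; no position was taken from it. Efficiency was tested with edgeR 4.0.16 in R 4.3.3 (quasi-likelihood): split and unsplit columns per library, a term per library, one for unsplit and one for unsplit in the knockdown, with at least 10 split and 10 unsplit reads. Spliced reads used TMM and filterByExpr. p-values were adjusted by Benjamini-Hochberg over all introns or genes (threshold 0.05). Long reads used a pseudocount of 0.5 and at least 20 reads for a ratio.

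Scripts were tested on simulated data. The simulation of introns was revised 3 times: earlier versions, with the spread set by hand and other odds ratios put in, recovered none or all of the changes. With the spread matched to the real dispersion, an odds ratio of 2 was not recovered and one of 4 only in part. Changes were put only into introns with many reads at the 5′ junction, unsplit reads among them. Many of the introns described here have fewer, and recovery for such introns was not simulated. A missing call for an intron therefore does not show that a 4-fold change in odds is absent.

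Introns named are those past the threshold and, per gene, the one with the largest change in mean efficiency at 20 or more reads in every library; introns with an unadjusted p under 0.05, and *Snrnp48* intron 3, *Rnpc3* introns 9 and 13, *Zrsr2* introns 2 and 3 were added after their values were seen. Partners are named where called, and transcripts at 10 or more long reads. The members and lists were chosen with earlier results of these data known. Alternatives were DESeq2 1.42.0, limma 3.58.1, other scalings, filters and junctions, a replicate block, and each library left out.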

Additional observations from a re-analysis of the deposited data

How the results depend on the processing

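None of the 9 tested genes or of their tested introns was called under any alternative that kept all 4 total RNA libraries, and *Snrnp35* was not tested. The alternatives gave 307 values of 28 single results. Of the 28, 13 changed sign at least once, none of them called. Log2 fold changes of spliced reads became -0.0066 for *Pdcd7* with the best covered intron, and 0.01 for *Scnm1* and 0.0072 for *Rbm48* at 3′ junctions. Leaving out 1 library gave -0.09 to 0.23 for *Pdcd7*, -0.0036 to 0.35 for *Zmat5*, -0.04 to 0.03 for *Scnm1* and -0.15 to 0.13 for *Rbm48*. Gene log2 odds ratios became 0.02 for *Rnpc3* at 3′ junctions, 0.03 for *Pdcd7* and -0.19 for *Scnm1* at 5′ junctions, and -0.03 for *Scnm1* with separate scaling. Leaving out 1 library gave -0.26 to 0.07 for *Rnpc3*, -0.49 to 0.06 for *Snrnp48*, -0.19 to 0.70 for *Zrsr2*, -0.20 to 0.47 for *Scnm1* and -0.32 to 0.09 for *Rbm48*; by intron, -1.02 to 0.47 for *Zmat5* intron 1, -0.53 to 0.87 for *Scnm1* intron 3 (-0.28 at 5′ junctions) and -0.59 to 0.03 for *Pdcd7* intron 2. A lone library left in a group is assumed to vary like the others. The causes were not tested.

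Partner genes called for splicing efficiency numbered 2, but 1 at 5′ junctions, 1 with DESeq2, 0 with limma and 0 to 2 leaving out 1 library. Those called for spliced reads numbered 3, but 1 with the best covered intron and 3 to 15 leaving out 1 library. Partner introns called, an analysis of alternatives added after seeing the data, numbered 3, but 1 at 3′ junctions, 1 at 5′ junctions, 1 with DESeq2, 0 with limma and 0 to 4 leaving out 1 library. With the replicate number as a block, 5 partner genes and 6 partner introns were called for splicing efficiency, and no other call count moved by over 1.5 times. The numbers are not shown to pair the libraries: deviations of same-numbered libraries correlated at 0.0356 over 7388 genes for spliced reads and 0.0932 over 7348 genes for unsplit reads. With a pseudocount of 5 reads, 0 in place of 1 of the long-read ratios was past 2-fold.

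Each group had 2 libraries, and the median was 144.5 junction reads in an intron's shallowest library; how far depth and how far the spread between libraries set the width of the intervals was not tested.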
